A study of Mus musculus with 6 samples.

Results

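The endoplasmic reticulum (ER) protein processing genes are the mouse genes that the deposited KEGG annotation places in the pathway of protein processing in the ER. The integrated stress response and apoptosis genes Atf4, Ddit3, Ppp1r15a, Eif2ak3, Eif2ak2, Bax, Bak1, Bcl2 and Nfe2l2 were taken out by name. The pathway held 169 genes, 8 of the 9 names were among them (Eif2ak2 carried no such annotation), and 161 members remained of 78298 genes in the table. Of the 161 members, 159 are protein coding. The list was set by annotation and by these names, with earlier results of these data known.

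RENCA is a long-established line of mouse renal adenocarcinoma cells. The oe-AQP1 cells were RENCA cells transduced with a lentivirus that carried the mouse Aqp1 coding sequence, and the oe-NC cells were transduced with the empty vector. AQP1 is a water channel of the plasma membrane. Both vectors carried puromycin resistance, both groups were kept in 2 μg/mL puromycin for 14 days, starting 48 h after transduction, and there were 3 samples of each group, which the labels place in 1 batch and call biological replicates. Whether a group was 1 clone or a pool of clones, and whether its samples came from separate transductions, is not given. The p-values therefore measure the spread between these samples.

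Most secreted and membrane proteins are folded in the ER. They enter through the Sec61 translocon, receive N-linked glycans, fold with lumenal chaperones such as BiP (Hspa5) and with calnexin and calreticulin, and gain disulfide bonds through protein disulfide isomerases and the ER oxidases. Folded cargo leaves in COPII vesicles, while proteins that fail to fold are moved back to the cytosol, ubiquitinated and degraded (ER-associated degradation). When unfolded proteins accumulate, the sensors IRE1α (Ern1), ATF6 and PERK start the unfolded protein response (UPR), which raises the transcription of many of these same genes.

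The UPR factors ATF6 and XBP1 are known to act through short promoter motifs, and the promoters of 6 members are shown because they carry such motifs while their transcripts went in both directions. Each is the 250 bases before the start of the gene's canonical transcript (GENCODE M39, build GRCm39, written 5′ to 3′ on the gene's strand). Capitals mark the motif matches, which are an ER stress response element (ERSE, spelled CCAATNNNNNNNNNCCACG, on either strand) in the first 5 promoters. In Hyou1 the capitals mark matches of ERSE-II (ATTGG and CCACG with 1 base between them, here on the reverse strand) and of the unfolded protein response element (UPRE, TGACGTGG), of which the last 5 letters are the reverse complement of CCACG, so that a UPRE match can share bases with an ERSE-II match.
Hspa5, chr2:34661854-34662103, plus strand: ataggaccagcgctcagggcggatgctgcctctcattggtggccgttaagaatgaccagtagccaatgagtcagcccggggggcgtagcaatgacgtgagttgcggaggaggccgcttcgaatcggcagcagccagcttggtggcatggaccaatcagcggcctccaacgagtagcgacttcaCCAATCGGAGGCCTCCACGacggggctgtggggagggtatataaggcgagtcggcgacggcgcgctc
Syvn1, chr19:6096356-6096605, plus strand: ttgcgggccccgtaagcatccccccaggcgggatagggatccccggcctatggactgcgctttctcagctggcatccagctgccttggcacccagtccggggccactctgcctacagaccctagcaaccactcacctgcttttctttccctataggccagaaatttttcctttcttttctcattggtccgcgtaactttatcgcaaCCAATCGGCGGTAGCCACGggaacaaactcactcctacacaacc
Hsp90b1, chr10:86541379-86541628, minus strand: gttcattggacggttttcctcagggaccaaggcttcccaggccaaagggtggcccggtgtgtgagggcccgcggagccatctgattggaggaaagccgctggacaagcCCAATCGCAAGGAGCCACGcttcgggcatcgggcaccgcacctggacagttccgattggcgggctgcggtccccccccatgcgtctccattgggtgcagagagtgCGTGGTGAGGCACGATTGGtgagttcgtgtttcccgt
Canx, chr11:50216530-50216779, minus strand: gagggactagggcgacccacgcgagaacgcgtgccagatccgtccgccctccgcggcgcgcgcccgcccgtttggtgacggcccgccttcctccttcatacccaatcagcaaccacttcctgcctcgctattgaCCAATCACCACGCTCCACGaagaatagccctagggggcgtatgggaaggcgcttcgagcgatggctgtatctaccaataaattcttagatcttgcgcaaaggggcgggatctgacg
Dnajc3, chr14:119175095-119175344, plus strand: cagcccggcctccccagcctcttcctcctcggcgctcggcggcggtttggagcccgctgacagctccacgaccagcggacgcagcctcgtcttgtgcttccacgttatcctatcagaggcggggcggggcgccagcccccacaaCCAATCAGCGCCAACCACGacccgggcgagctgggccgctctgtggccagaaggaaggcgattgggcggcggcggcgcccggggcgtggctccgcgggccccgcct
Hyou1, chr9:44290523-44290772, plus strand: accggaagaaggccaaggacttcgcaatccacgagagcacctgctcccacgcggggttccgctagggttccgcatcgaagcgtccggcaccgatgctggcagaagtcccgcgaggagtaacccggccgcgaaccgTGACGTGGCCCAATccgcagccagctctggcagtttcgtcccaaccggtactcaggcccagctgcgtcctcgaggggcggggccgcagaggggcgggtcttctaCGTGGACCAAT

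In the 300 bases from 250 before to 50 after the start, ERSE was found in 8 of 144 members tested for expression (5.56%) and in 14 of 11962 protein-coding genes tested (0.117%), these members included. The members that held it were Calr, Canx, Dnajc3, Ero1b, Hsp90b1 (with 2 matches), Hspa5, Pdia6 and Syvn1. ERSE-II was found in 3 members (2.08%, against 0.1% of the genes), which were Dnajb11, Herpud1 and Hyou1. UPRE was found in 6 members (4.17%, against 0.861%), and a heat shock element (GAA, TTC and GAA with 2 bases between units) in 3 members (2.08%, against 0.443%). A match describes letters in this window and says nothing about binding.

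Among all 15522 genes tested, limma-voom called 16.0% higher and 16.6% lower with AQP1 overexpression at a false discovery rate (FDR, the Benjamini-Hochberg adjusted p) under 0.05, and 4.39% and 0.844% passed the study's threshold for differentially expressed genes (DEGs, an absolute log2 fold change, log2FC, above 1 as well). The samples held 18385714 to 21920899 expected counts each. Aqp1, the transgene, stood at 387 ± 4.75 CPM (counts scaled to a common library size with TMM factors, as mean ± SD, n = 3) in oe-AQP1 and 1.86 ± 0.423 in oe-NC cells (log2FC 7.70, SE 0.16, FDR = 1.34e-10). The epithelial markers Krt8, Krt18, Pax8 and Cdh16 were measured and Epcam and Havcr1 were at 0 in all samples, and the summed renal epithelial markers were 828 to 857 CPM with AQP1 and 1000 to 1110 CPM in the controls. Of the leukocyte markers, Adgre1, Tyrobp and C1qa were at 0, and the list summed to 59.5 to 62.8 against 69.5 to 71.8 CPM. The 4 with enough counts to test were Cd68 (mean 33.8 against 30.6 CPM) and Cd14 (11.5 against 12.9 CPM), not called, and Lyz2 (11.9 against 17.1 CPM) and Csf1r (3.30 against 9.43 CPM), called lower. Fibroblast markers summed to 56 to 58 against 51.1 to 65.1 CPM, with Pdgfrb called higher (log2FC 0.34) and Col1a1 lower (log2FC -0.73). Proximal tubule markers summed to 22.1 to 25.4 against 38.4 to 40.5 CPM, and endothelial markers to 1.01 to 1.73 against 0.93 to 1.45 CPM. Their part in the results was not tested, and in bulk RNA fewer cells of a type and less RNA per cell cannot be told apart. The library of oe-NC replicate 1 stood apart from its group, with a chi-square per gene of 9.75 and 11.3 against the other oe-NC samples, where the remaining pairs within a group gave 1.74 to 2.06, so counts are also given without it.

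The ER protein processing genes were more often lower than higher in oe-AQP1 cells, by small amounts. Of the 161 members, 144 passed the low-count filter. Of these, 17 were higher (11.8%, against 16.0% of all genes tested) and 50 lower (34.7%, against 16.6%), while 77 were not called. By limma-voom, as by edgeR and DESeq2 and at an unadjusted p under 0.05, 0 members passed the DEG threshold in the higher direction (4.39% of all genes did), and 1, Lman1l, was a DEG in the lower direction (0.844% of all genes). The median log2FC of the tested members was -0.08 (quartiles -0.19 and 0.02), beside a median of 0.0023 over all genes, and 71.5% of them lay below 0 beside 49.7% of all genes. The median absolute log2FC of the called members was 0.23. At an unadjusted p under 0.05 the counts were 18 higher and 58 lower, and no share over all genes was counted there.

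These are abundant transcripts, with a median of 2135 counts per sample beside 492 over all genes tested, and their log2FC had a median SE of 0.046 beside 0.078. Among genes with a mean of at least 1000 counts, 17.6% were called higher and 28.1% lower, and the 112 members at that level held 15 higher (13.4%) and 42 lower (37.5%). Their median log2FC was -0.08, where all genes at that level had -0.04. All 3 oe-AQP1 samples lay above all 3 oe-NC samples in 23 of the tested members (16%, against 23.5% of all genes) and below them in 66 (45.8%, against 23.8%). The 17 higher members were among these, and so were the 50 lower ones except Bcap31 (76.6, 88.9 and 80.0 against 88.2, 98.1 and 94.3 CPM). The 23.5% and 23.8%, like the 49.7% below 0, were counted over genes of all levels. They were not counted among genes with a mean of at least 1000 counts.

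**Figure D1:**
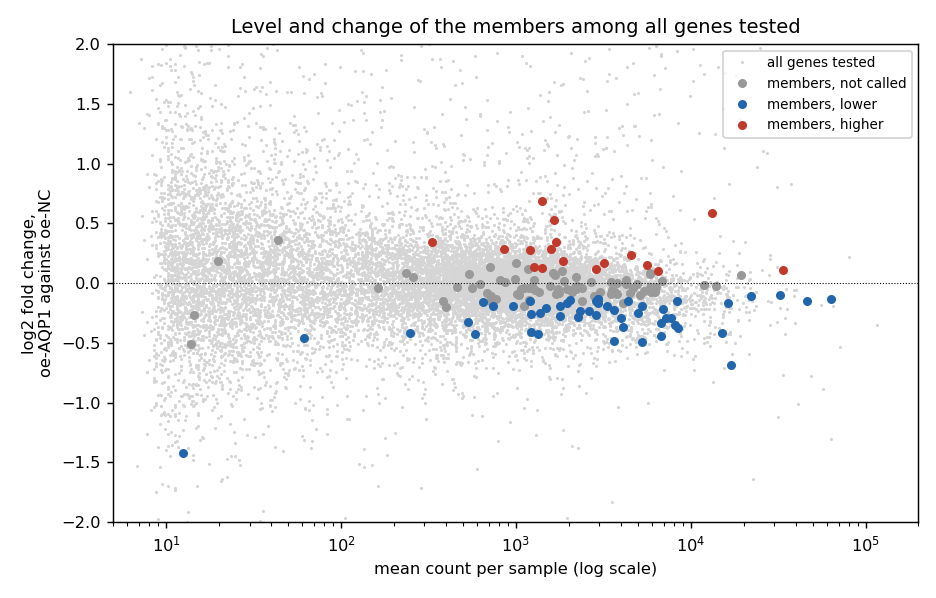
Mean expected count per sample (log scale) against the log2FC of oe-AQP1 over oe-NC for all 15522 genes tested (light points, with 277 genes beyond an absolute log2FC of 2 outside the axes) and for the tested members, coloured by call. The 50 lower members (blue) lie mostly between 0 and -0.5, Lman1l at the lower left is the member with the lowest log2FC, -1.42, and the 17 higher members (red) reach 0.69.

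Without oe-NC replicate 1 the counts were 21 higher and 68 lower, and 17 of the 17 higher and 49 of the 50 lower members kept their call. In that fit 19.4% of all 16085 genes tested were higher and 20.7% lower. Leaving out the other samples gave fewer calls. The higher count was 11 without oe-AQP1 replicate 1, 2 or 3, where 11.7% to 12.1% of all genes were higher, and the lower count was 32 without oe-AQP1 replicate 2 or 3, where 11.0% and 11.1% of all genes were lower. Of the members called, 11 higher and 29 lower passed in every such fit, and no member called turned its direction in any. Over these fits 11.7% to 19.4% of all genes were higher and 11.0% to 20.7% lower. Those shares stand beside the role-group counts for such fits below.

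Summed over all 161 members, the transcripts made up 30824, 30750 and 30773 CPM in the oe-AQP1 samples and 33145, 33146 and 32925 CPM in the oe-NC samples. The groups did not overlap, and the sum was 6.92% lower in oe-AQP1 cells (30782 ± 37.8 against 33072 ± 127 CPM, n = 3, exact permutation test p = 0.1, two-sided, the smallest value that 3 against 3 samples allow). In share, 3.08% of the reads of oe-AQP1 and 3.31% of those of oe-NC cells came from these genes. Added over the 108 members with a lower mean, CPM decreased by 3057 in all, and over the 44 with a higher mean it rose by 767. Ero1a (decreased by 391 CPM), Hsp90ab1 (decreased by 291) and Hsp90aa1 (decreased by 235) fell the most in CPM, and without these 3 the sum was still 5.2% lower. Rrbp1 (257 CPM) and Hspa5 (126 CPM) made the largest increases.

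**Figure D2:**
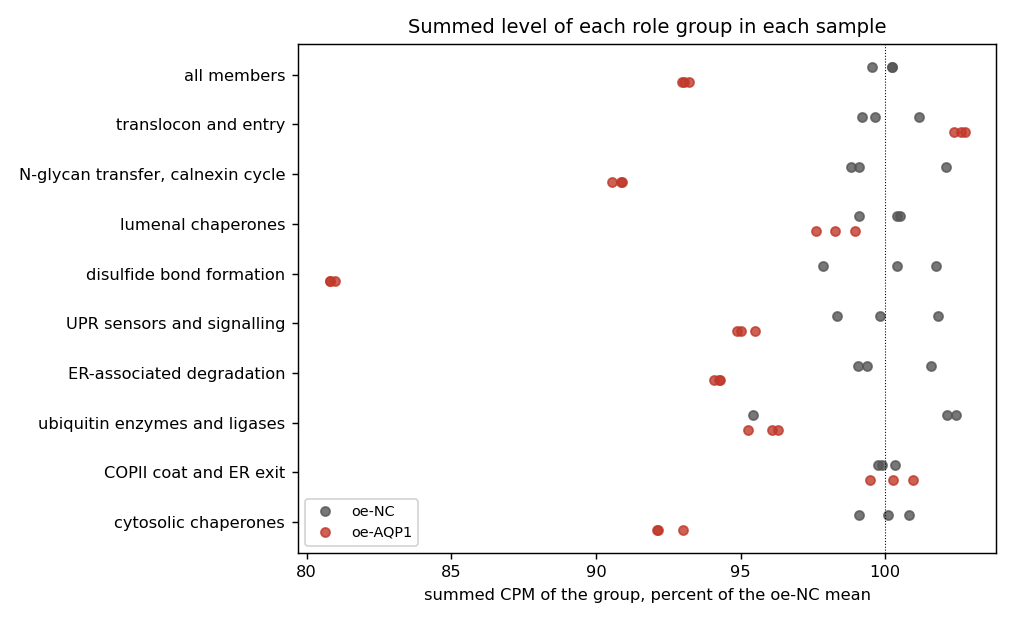
Summed CPM of all members and of each role group in each sample, as a percent of the oe-NC mean of that group (grey, oe-NC, and red, oe-AQP1, with 3 points each). The oe-AQP1 samples lie below all oe-NC samples in the sum of all members and furthest below in disulfide bond formation (19.1% lower on average), while in the translocon group they lie above, by 2.59%. That group includes Rrbp1, whose rise of 257 CPM exceeds the rise of the group sum (2570 against 2505 CPM).

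Per exon length (TPM, counts scaled by the length of all annotated exons of a gene and by library size), the most abundant members were the cytosolic chaperones Hsp90ab1 (mean 2273 TPM over the 6 samples) and Hsp90aa1 (1963 TPM). They were followed by Hspa5 (1178 TPM), Calr (988 TPM) and P4hb (789 TPM), which code for ER lumen proteins. That length is not the length of a single transcript, so the order depends on which exons are annotated. Of these 5, Hspa5 was called higher, Calr was not called, and the others were called lower.

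The translocon and ER entry genes held the largest single increase in CPM. Of 14 members 12 were tested, with 1 higher (Rrbp1), 3 lower (Ssr3, Ssr1 and Sec63) and a median log2FC of -0.06. Of the 12, 9 lay below 0. Among all genes tested, 16.0% were higher, 16.6% lower and 49.7% below 0. The summed level was 2570 ± 4.83 against 2505 ± 26.1 CPM, a rise smaller than that of Rrbp1 alone (257 CPM). Rrbp1 (chr2:143789118-143853195, minus strand, GRCm39), the ribosome-binding protein of rough ER membranes, stood at 785, 775 and 771 CPM in the oe-AQP1 and 584, 494 and 485 CPM in the oe-NC samples. It was higher in all oe-AQP1 samples, by 49.8% (log2FC 0.58, SE 0.06, FDR = 4.87e-05), and oe-NC replicate 1 was the highest of the controls. Ssr3, a subunit of the translocon-associated protein complex, read 362, 361 and 362 CPM against 422, 497 and 496 CPM, with no overlap (log2FC -0.38, SE 0.06, FDR = 0.000778). Ssr1 of the same complex fell as well (log2FC -0.29, SE 0.04, FDR = 0.000165), while Ssr2 (log2FC -0.03) and Ssr4 (log2FC -0.04) were not called. Sec61b, a small subunit of the channel, overlapped between groups (53.8, 59.2 and 54.3 against 51.9, 66.3 and 67.9 CPM, log2FC -0.14, FDR = 0.276). The low value was oe-NC replicate 1, and without it Sec61b had a log2FC of -0.27 and FDR = 8.75e-05, and 5 translocon members were lower.

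No member of N-glycan transfer, trimming and the calnexin cycle was higher, and 12 of the 23 tested (24 in all) were lower, with a median log2FC of -0.17. The shares of all genes tested were 16.0% higher and 16.6% lower. DESeq2 and edgeR called 0 higher as well, and at an unadjusted p under 0.05 1 was higher, Calr. With sample quality weights in limma-voom, Calr was called higher (log2FC 0.083, FDR = 0.00564). Their summed level was 4897 ± 11.1 CPM in oe-AQP1 and 5394 ± 97.9 CPM in oe-NC cells, 9.23% lower. Uggt1, the folding sensor that adds glucose back to unfolded glycoproteins, stood at 212, 214 and 220 CPM against 302, 308 and 298 CPM. The groups were far apart, and Uggt1 was 28.8% lower (log2FC -0.49, SE 0.04, FDR = 3.13e-06). Canx, the membrane lectin chaperone calnexin, read 316, 317 and 331 CPM against 377, 405 and 399 CPM (log2FC -0.29, SE 0.04, FDR = 0.000299). Its lumenal relative Calr went the other way without passing, at 984, 975 and 967 CPM against 951, 910 and 929 CPM (log2FC 0.07, SE 0.03, FDR = 0.109). The Calr groups did not overlap, and without oe-NC replicate 1 it passed with a log2FC of 0.08 (FDR = 0.000136).

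Among the oligosaccharyltransferase genes, which move the glycan onto the nascent chain, Dad1 (log2FC -0.26), Magt1 (-0.25), Rpn2 (-0.17), Stt3b (-0.17) and Ddost (-0.15) were lower. Stt3a (-0.08), Rpn1 (-0.07), Tmem258 (-0.11) and Ostc (-0.05) were not called. The glucosidase subunit Ganab (log2FC -0.30), the ER mannosidase Man1b1 (-0.22) and the cargo receptor Lman1 (-0.15) were lower too. The remaining lower members were scarce. Lman1l, a relative of Lman1, had 5, 6 and 10 counts against 15, 18 and 21 (log2FC -1.42, SE 0.34, FDR = 0.00906), and it missed the threshold without oe-AQP1 replicate 2 (log2FC -1.30, FDR = 0.0513). Calr4, a calreticulin relative, read 2.93, 2.18 and 2.68 CPM against 3.52, 3.39 and 3.71 CPM (log2FC -0.46, FDR = 0.0462), and it missed the threshold when any 1 sample was left out, with FDR from 0.0547 without oe-AQP1 replicate 1 to 0.181 without oe-AQP1 replicate 2. For the group, 7 members were lower without oe-AQP1 replicate 3 (where 11.1% of all genes were lower). Without oe-NC replicate 1, 16 were lower and 2 higher (where 20.7% and 19.4% of all genes were).

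**Figure D3:**
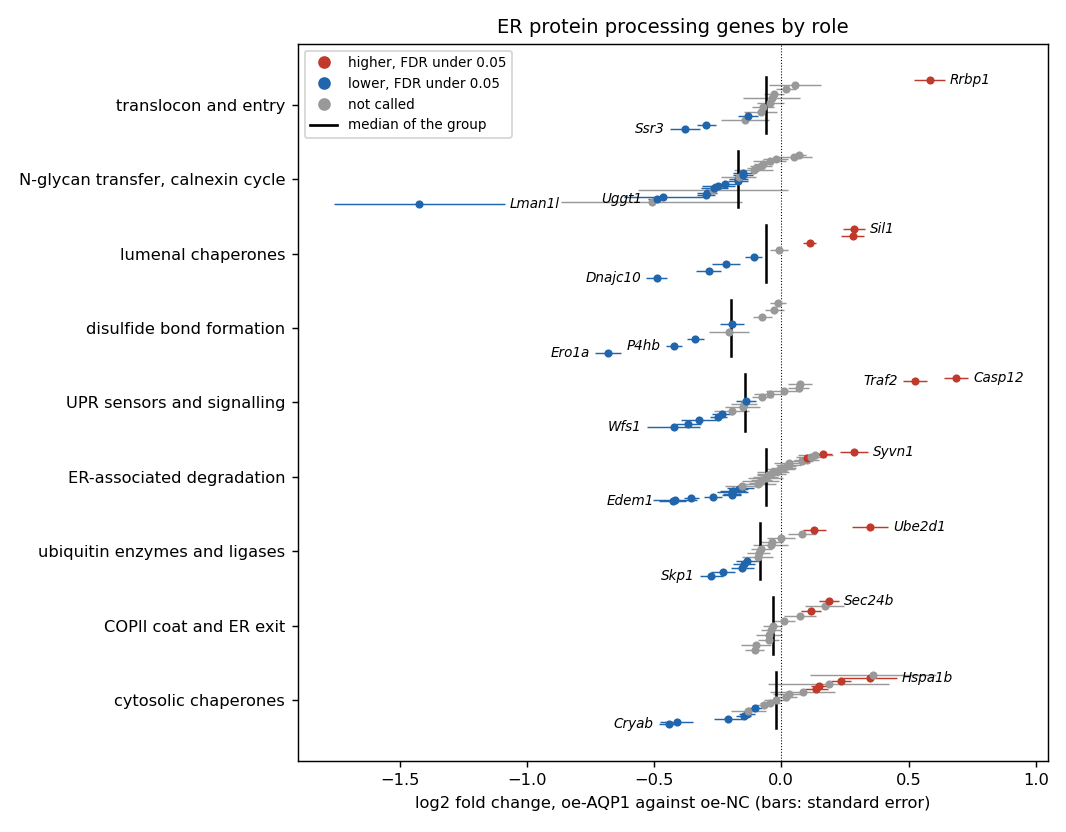
log2FC of oe-AQP1 over oe-NC with its standard error for each tested member, in 9 role groups, with the median of each group as a black bar. All 8 disulfide bond genes lie below 0, no N-glycan gene is called higher, and the 3 members with the largest increases are Casp12 (0.69), Rrbp1 (0.58) and Traf2 (0.53). Over all genes tested, 49.7% lay below 0 and 16.0% were called higher.

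All 8 genes of disulfide bond formation had a log2FC below 0, and 4 were lower (Ero1a, P4hb, Txndc5 and Erp29), with a group median of -0.20. Of all genes tested, 49.7% lay below 0 and 16.6% were lower. The summed level of the 8 genes was 3038, 3039 and 3044 CPM in oe-AQP1 against 3679, 3826 and 3776 CPM in oe-NC samples, 19.1% lower, the largest relative difference of the 9 groups. Ero1a (chr14:45520541-45556228, minus strand, GRCm39) codes for the oxidase that recharges protein disulfide isomerase. It read 630, 649 and 652 CPM against 945, 1092 and 1066 CPM, which was 37.7% lower (log2FC -0.68, SE 0.05, FDR = 4.54e-06). All oe-AQP1 samples lay well below the lowest control, oe-NC replicate 1. P4hb (chr11:120451122-120464538, minus strand), the disulfide isomerase PDI itself, stood at 644, 636 and 630 CPM against 877, 847 and 836 CPM, 25.4% lower and with no overlap (log2FC -0.42, SE 0.03, FDR = 4.59e-06). The isomerase Txndc5 was 20.9% lower (log2FC -0.34, FDR = 3.6e-05) and the lumenal protein Erp29 12.6% lower (log2FC -0.19, FDR = 0.0117).

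The other isomerases moved less. Pdia3, which works with calnexin and calreticulin, overlapped between groups (673, 675 and 685 against 658, 714 and 701 CPM, log2FC -0.03, FDR = 0.621). Pdia4 was below the controls in all samples (142, 148 and 148 against 153, 155 and 154 CPM) but did not pass (log2FC -0.07, FDR = 0.159). Ero1b, the other ER oxidase gene, had a log2FC of -0.20 (FDR = 0.0763) and Pdia6 one of -0.01 (FDR = 0.781). Without oe-NC replicate 1, 7 of the 8 genes were lower, Pdia3 (log2FC -0.06, FDR = 0.00461) and Pdia4 (log2FC -0.08, FDR = 0.0401) among them. In that fit 20.7% of all genes were lower.

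The lumenal HSP chaperones and their co-chaperones split. Of 8 members 3 were higher (Hspa5, Sil1 and Dnajc1) and 4 lower (Dnajc10, Dnajc3, Hyou1 and Hsp90b1), and their summed level differed by 1.73% (3726 ± 25.4 against 3792 ± 30.3 CPM). For all genes tested the shares were 16.0% higher and 16.6% lower. Hspa5 (chr2:34661982-34668880, plus strand, GRCm39), the Hsp70 chaperone BiP, read 1710, 1714 and 1730 CPM against 1574, 1613 and 1587 CPM. It was higher in every oe-AQP1 sample, by 7.96% (log2FC 0.11, SE 0.03, FDR = 0.01). Its log2FC stayed between 0.10 and 0.12 as samples were left out, but FDR was 0.0517, 0.0581 and 0.0672 without oe-AQP1 replicate 1, 2 and 3. Sil1, the nucleotide exchange factor of BiP, rose from 68.9, 70.6 and 72.1 CPM in the controls to 88.5, 86.1 and 83.8 CPM (log2FC 0.29, SE 0.04, FDR = 0.000672). Dnajc1, a membrane J protein that partners BiP, was 21.4% higher (log2FC 0.28, SE 0.04, FDR = 0.000873).

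Dnajc10, the J protein ERdj5, which is also a disulfide reductase, read 150, 146 and 152 CPM against 201, 211 and 217 CPM, 28.8% lower with no overlap (log2FC -0.49, SE 0.04, FDR = 1.03e-05). Dnajc3, a co-chaperone that also inhibits eIF2α kinases, stood at 97.9, 103 and 103 CPM against 115, 126 and 129 CPM (log2FC -0.29, SE 0.05, FDR = 0.00178). Hyou1, a large Hsp70 relative of the lumen, read 316, 314 and 314 CPM against 405, 343 and 354 CPM (log2FC -0.22, SE 0.06, FDR = 0.0139). The oe-NC replicate 1 value was the highest, and without it the log2FC was -0.15 (FDR = 1.63e-05), while FDR was 0.0559 without oe-AQP1 replicate 2 and 0.057 without oe-AQP1 replicate 3. Hsp90b1, the lumenal Hsp90 known as GRP94, differed least of the 4 (1056, 1030 and 1063 against 1090, 1155 and 1152 CPM, log2FC -0.11, SE 0.03, FDR = 0.0296). It passed without oe-NC replicate 1, and when any other sample was left out FDR lay between 0.0789 (without oe-AQP1 replicate 3) and 0.144 (without oe-AQP1 replicate 2). Dnajb11 overlapped between groups (log2FC -0.01, FDR = 0.872). Without oe-AQP1 replicate 2 or 3, the lower members of the group were 2.

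The 8 members with an ERSE did not move one way. Syvn1 and Hspa5 were higher, Hsp90b1, Dnajc3 and Canx lower, and Calr, Pdia6 and Ero1b not called, with a median log2FC of -0.06. Of the ERSE-II holders, Hyou1 was lower and Herpud1 (log2FC -0.08, FDR = 0.172) and Dnajb11 were not called. Of the UPRE holders, Hyou1 and Vcp were lower and Mapk8, Sec24a, Sec24d and Ube2j1 were not called. The heat shock element was held by Calr4 and Ube2g2, which were lower, and by Sec62, which was not called.

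**Figure D4:**
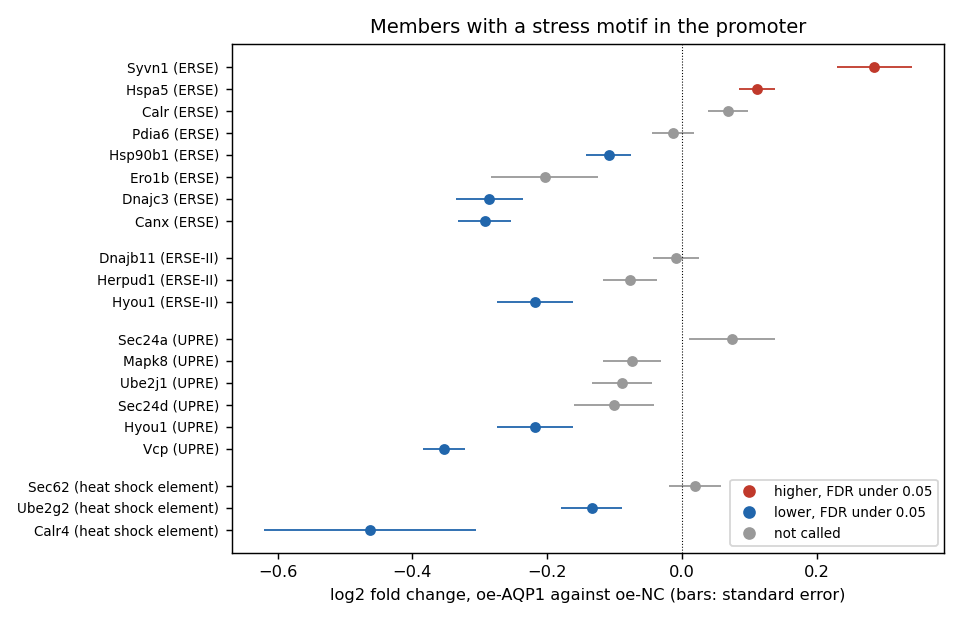
log2FC of oe-AQP1 over oe-NC with its standard error for the tested members whose promoter holds each motif. Among the ERSE holders the values run from -0.29 (Canx) to 0.28 (Syvn1), and no holder of the other 3 motifs is called higher. Those holders are few (3 for ERSE-II, 6 for UPRE, 3 for the heat shock element), and 16.0% of all genes tested were called higher.

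In ER-associated degradation (recognition and retrotranslocation), 33 of 37 members were tested, 3 were higher (Syvn1, Nsfl1c and Rad23b) and 10 lower, with a median log2FC of -0.06 and a summed level 5.79% lower (3642 ± 4.13 against 3866 ± 53 CPM). Across all genes tested, 16.0% were higher and 16.6% lower. Syvn1, the membrane ubiquitin ligase HRD1, read 46.3, 45.8 and 47.1 CPM against 40.8, 37.3 and 36.4 CPM. It was higher in all oe-AQP1 samples, by 21.9% (log2FC 0.28, SE 0.06, FDR = 0.00326). Its partner Sel1l went the other way at 184, 179 and 178 against 194, 193 and 189 CPM without passing (log2FC -0.09, SE 0.04, FDR = 0.0825), and it passed without oe-NC replicate 1 (log2FC -0.08, FDR = 0.0171). Vcp, the ATPase that pulls substrates from the membrane, stood at 356, 352 and 354 CPM against 450, 454 and 452 CPM. The groups were tight and far apart, with oe-AQP1 21.7% lower (log2FC -0.35, SE 0.03, FDR = 1.42e-05), while Nsfl1c, its cofactor p47, was 12% higher (log2FC 0.16, SE 0.04, FDR = 0.00556). Edem1, a lectin that hands misfolded glycoproteins to degradation, read 53.7, 57.7 and 57.9 CPM against 77.5, 78.8 and 71.6 CPM (log2FC -0.43, SE 0.05, FDR = 0.000212).

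Fbxo2, an F-box protein that binds glycoproteins in the cytosol, fell from 14.98, 12.8 and 14.1 CPM to 10.1, 10.3 and 10.9 CPM (log2FC -0.42, SE 0.09, FDR = 0.00452). Other lower members were Ubqln1 (log2FC -0.27), Ube4b (-0.19), Bcap31 (-0.19), Edem3 (-0.19), Ubxn1 (-0.17) and Ngly1 (-0.16). Ngly1 removes glycans from the extracted proteins. Herpud1, the scaffold of the HRD1 complex, was below the controls in all samples by a narrow margin (175, 178 and 176 against 193, 187 and 178 CPM) and was not called (log2FC -0.08, FDR = 0.172). Derl3, a derlin, lay at 0.112 CPM in oe-AQP1 and 0.102 CPM in oe-NC cells and was not tested.

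**Figure D5:**
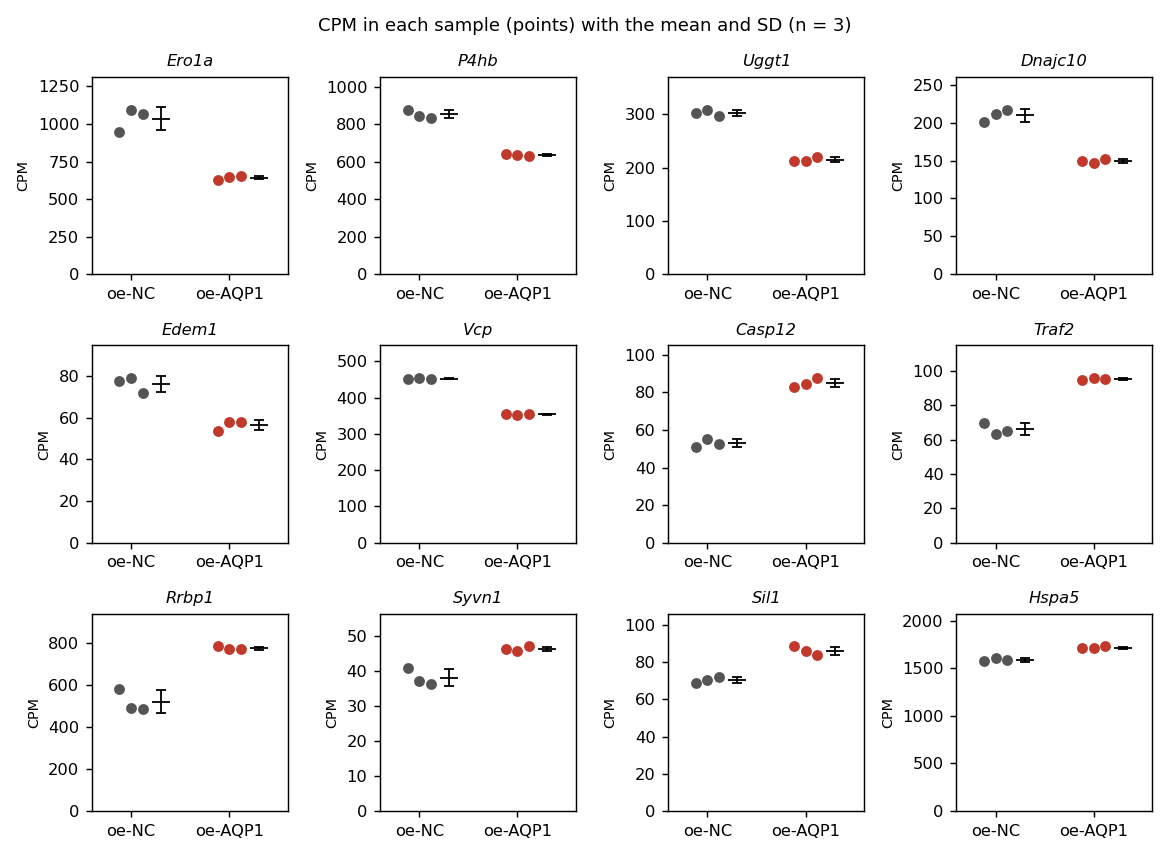
CPM of 12 members in each sample (points), with the mean and SD of each group (n = 3) beside them, on axes that start at 0. In all 12 panels the oe-AQP1 samples (red) lie wholly on 1 side of the oe-NC samples (grey), from Ero1a at 643 against 1034 CPM to Hspa5 at 1718 against 1591 CPM. The 12 were picked from the named members, whose rule favours members without overlap, so this separation follows from the choice. Over all genes tested, 23.5% lay wholly above and 23.8% wholly below.

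Of the ubiquitin-conjugating enzymes and ligases, 14 of 18 were tested, 2 were higher (Ube2d1 and Ube2j2) and 5 lower (Skp1, Stub1, Marchf6, Rnf185 and Ube2g2). Over all genes tested, 16.0% were higher and 16.6% lower. Ube2d1 read 18.5, 18.4 and 17.9 CPM against 14.9, 13.4 and 14.7 CPM (log2FC 0.35, SE 0.07, FDR = 0.00405). It belongs to a family of near-identical ubiquitin-conjugating enzymes, and its counts were not whole, so that reads could have been divided among copies. Ube2j2, an ER-anchored conjugating enzyme, differed little (73.8, 73.0 and 71.2 against 65.2, 68.9 and 65.3 CPM, log2FC 0.13, FDR = 0.0478), and missed the threshold when any 1 oe-AQP1 sample or oe-NC replicate 3 was left out, with FDR from 0.0902 to 0.161. Skp1, the adaptor of cullin ligases, stood at 81.7, 79.9 and 79.4 CPM against 92.7, 101 and 98.4 CPM (log2FC -0.28, SE 0.04, FDR = 0.00114). Stub1, the chaperone-bound ligase CHIP, read 110, 108 and 101 CPM against 129, 126 and 120 CPM (log2FC -0.23, SE 0.05, FDR = 0.00433). The lower count was 8 without oe-NC replicate 1 and 2 or 3 when any other sample was left out, and the higher count was 1 when any oe-AQP1 sample or oe-NC replicate 3 was left out.

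The COPII coat, which carries cargo out of the ER, was nearly level. Of 11 members tested (12 in all), 2 were higher (Sec24b and Sec23b) and 0 lower by limma-voom (0 also by DESeq2 and by edgeR), and the summed level differed by 0.238%. The shares of all genes tested were 16.0% higher and 16.6% lower. At an unadjusted p under 0.05 1 member was lower, Sec31a (log2FC -0.10, FDR = 0.0526). Sec24b, a cargo adaptor, read 97.4, 98.4 and 96.6 CPM against 87.7, 84.4 and 84.6 CPM (log2FC 0.19, SE 0.04, FDR = 0.0051). Sec23b, its coat partner, passed narrowly (145, 151 and 144 against 131, 136 and 139 CPM, log2FC 0.12, FDR = 0.0495), and passed only without oe-NC replicate 1 when samples were left out, with FDR from 0.0586 to 0.204 in the other 5 fits. The higher count was then 1. Sec24d overlapped between groups (log2FC -0.10, FDR = 0.224).

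Among the UPR sensors and signalling genes, 16 of 17 were tested, 2 were higher (Casp12 and Traf2) and 6 lower (Wfs1, Capn2, Map3k5, Atf6, Mbtps1 and Map2k7), with a median log2FC of -0.14. Over all genes tested, the shares were 16.0% higher and 16.6% lower. Casp12 (chr9:5345415-5373034, plus strand, GRCm39), an ER-associated caspase, had the largest increase in log2FC of all members. It read 83.0, 84.7 and 87.6 CPM in oe-AQP1 and 51.1, 55.5 and 52.3 CPM in oe-NC samples, 60.9% higher with no overlap (log2FC 0.69, SE 0.05, FDR = 2.71e-06). Traf2, an adaptor that binds activated IRE1α and also tumour necrosis factor receptors, stood at 94.5, 95.7 and 95.3 CPM against 70.0, 63.1 and 65.3 CPM, 44% higher (log2FC 0.53, SE 0.05, FDR = 1.81e-05). Map3k5, the kinase ASK1 that acts downstream of TRAF2, was 20.2% lower (log2FC -0.32, FDR = 0.00468).

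Of the sensors, Atf6 read 221, 229 and 226 CPM against 263, 270 and 269 CPM, 15.7% lower and with no overlap (log2FC -0.25, SE 0.04, FDR = 0.000416). Mbtps1, the protease that cleaves ATF6 in the Golgi, was lower as well (log2FC -0.23, FDR = 0.00218), while Mbtps2, which makes the following cut, was not called (log2FC -0.04). Ern1 was below the controls in all samples (106, 114 and 115 against 129, 125 and 116 CPM) and missed the threshold (log2FC -0.15, SE 0.05, FDR = 0.0513). It passed without oe-NC replicate 1 (log2FC -0.11, FDR = 0.0261) and without oe-NC replicate 3 (log2FC -0.19, FDR = 0.0229). Xbp1, whose transcript IRE1α splices, was above the controls in all samples (82.2, 84.8 and 85.0 against 81.2, 78.5 and 80.6 CPM) without passing (log2FC 0.07, SE 0.04, FDR = 0.237), and gene counts do not separate the spliced from the unspliced form.

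Capn2, a calpain that cleaves caspase-12, read 181, 176 and 173 CPM against 244, 220 and 218 CPM (log2FC -0.36, SE 0.05, FDR = 0.000317). Wfs1, an ER membrane protein that limits ATF6 signalling, stood at 27.5, 23.2 and 23.8 CPM against 38.9, 29.4 and 31.6 CPM (log2FC -0.42, SE 0.1, FDR = 0.0116). Its highest value was oe-NC replicate 1. Without that sample its log2FC was -0.31 (FDR = 0.00135), and without oe-AQP1 replicate 2 or 3 FDR was 0.0598 or 0.0543.

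Among the genes listed by name for removal, Atf4 was higher by 7.81% (log2FC 0.11, FDR = 0.0133) and Bak1 by a log2FC of 0.30. Eif2ak2, the double-stranded RNA kinase PKR, was on that list but did not carry the pathway annotation. It was higher by a log2FC of 1.2 (404 ± 3.55 against 176 ± 6.43 CPM, SE 0.04, FDR = 3.46e-09). Eif2ak3, which codes for PERK, was lower (23.1 ± 0.543 against 28.5 ± 1.49 CPM, log2FC -0.30, FDR = 0.00436). Ddit3, Ppp1r15a, Bax, Bcl2 and Nfe2l2 were not called.

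The cytosolic chaperones and cofactors, the most abundant group by summed CPM, were split as well. Of 19 tested (21 in all), 4 were higher (Hspa1b, Dnaja1, Dnajc5 and Dnajb1) and 6 lower (Cryab, Bag2, Dnajb12, Hsp90aa1, Hsp90ab1 and Hspa8), and the sum was 7.58% lower (8574 ± 47.3 against 9278 ± 79.2 CPM). Among all genes tested, 16.0% were higher and 16.6% lower. Cryab, the small heat shock protein αB-crystallin, read 285, 289 and 273 CPM against 379, 397 and 375 CPM, 26.4% lower with no overlap (log2FC -0.44, SE 0.04, FDR = 1.38e-05). Bag2, a cochaperone that inhibits CHIP, stood at 55.2, 49.5 and 51.4 CPM against 63.2, 72.5 and 71.8 CPM (log2FC -0.41, SE 0.06, FDR = 0.000937).

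The abundant cytosolic chaperones differed by less. Hsp90aa1, a cytosolic Hsp90, read 2164, 2164 and 2184 CPM against 2352, 2476 and 2390 CPM (log2FC -0.15, SE 0.03, FDR = 0.00299). Hsp90ab1, the constitutive Hsp90, read 2995, 2950 and 2939 CPM against 3404, 3168 and 3187 CPM (log2FC -0.13, SE 0.03, FDR = 0.00976), and FDR was 0.0559 without oe-AQP1 replicate 2 and 0.0572 without oe-AQP1 replicate 3. Hspa8, the constitutive Hsp70, read 1566, 1532 and 1537 CPM against 1642, 1669 and 1671 CPM (log2FC -0.10, SE 0.03, FDR = 0.0142), and FDR was 0.0882 and 0.0797 without those samples. In each of the 3 the groups did not overlap. Without oe-AQP1 replicate 2 or 3, the lower members of the group were 3.

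Dnaja1, an Hsp40 that works with these chaperones, was higher at 239, 248 and 242 CPM against 199, 205 and 215 CPM (log2FC 0.23, SE 0.04, FDR = 0.00156). Hspa1b, a heat-inducible Hsp70, read 92.8, 94.0 and 93.2 CPM against 91.5, 64.7 and 66.7 CPM (log2FC 0.35, SE 0.11, FDR = 0.0298). The oe-NC replicate 1 value lay just under the oe-AQP1 samples, and without it the log2FC was 0.51 (FDR = 1.22e-09), while FDR was between 0.0793 and 0.113 when any other sample was left out. Its near-identical copy Hspa1a overlapped between groups (11.6, 12.01 and 11.7 against 14.1, 10.2 and 9.62 CPM, log2FC 0.08, FDR = 0.661), and it had a log2FC of 0.25 (FDR = 0.0401) without oe-NC replicate 1. The counts of both are not whole, and the split of reads between them is uncertain. The higher members of the group were 5 without oe-NC replicate 1 and 2 when any other sample was left out.

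Lists of ER genes outside the pathway annotation, except for 1 UPR target that is also a member, were counted in the same fit. Of the ER membrane protein complex and tail-anchor insertion genes, which place membrane proteins that do not use Sec61 alone, 7 of 15 were lower and none higher, with a median log2FC of -0.18. Mmgt1 (also known as Emc5) had the largest difference, at 31.3, 30.2 and 34.1 CPM against 40.4, 48.6 and 47.2 CPM (log2FC -0.51, SE 0.08, FDR = 0.00083). Of the genes for ER-phagy and ER shape 5 of 14 were lower and none higher, of UFM1 conjugation 4 of 9 and none, and of COPI retrieval and KDEL receptors 4 of 15 and none, with medians of -0.09, -0.10 and -0.05. At an unadjusted p under 0.05, 1 gene of these 4 lists was higher, in that of ER-phagy and ER shape. The signal recognition particle and signal peptidase genes were nearly level (1 higher and 1 lower of 15, median -0.003), and other UPR targets were split (3 higher and 5 lower of 19, median 0.07). These last lists share genes, and the lower gene of the first is also among the lower UPR targets. The shares over all genes tested were 16.0% higher and 16.6% lower.

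Of the 161 members, 17 were not tested because of low counts. No count in any sample was listed for 9 of them, among which were Tram1l1, Ckap4, Ube2dnl2, Ube2dnl1, Dnajc5g, Svip, Sel1l2 and Gm15266. The other 8, among which were Man1a, Derl3, Dnajc5b, Mapk10, Sec31b, Ube2d2b and Gm49320, had few. Ckap4 and Svip code for common ER proteins, and at 0 counts a transcript of up to 3 counts per library is not detectable. Of the members, 56 had counts that were not whole in at least 1 sample, 30 of the called members among them.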

How the data were processed

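RNA from 6 samples (3 oe-AQP1, 3 oe-NC) was sequenced. The authors deposited expected counts per gene, unscaled, with GO and KEGG annotation and 2 columns of group means that were not used. The paper states alignment to GRCm39, and 78168 of 78298 gene identifiers were found in GENCODE M39, while the submitters' processing notes name fastp, HISAT2, featureCounts and Subread and the builds GRCm38 and mm10. The tool that gave fractional counts is not given in the sources used here. Reads divided among overlapping or near-identical genes can move the values of such members.

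Here the expected counts were rounded and tested with limma-voom (limma 3.58.1, edgeR 4.0.16, R 4.3.3), with TMM factors of 0.993 to 1.006, edgeR's filterByExpr and Benjamini-Hochberg adjustment over all 15522 genes. The steps were tested on simulated data with changes larger than the median absolute log2FC of the called members (0.23). Recovery of changes as small as that was not measured. TPM used exon-union lengths, and promoters were read from the GRCm39 genome at GENCODE M39 canonical starts with Python 3.11.15, pandas 2.3.3 and matplotlib 3.10.9 for tables and plots. The members, role groups, lists and the naming rule were chosen with earlier results of these data known, and 5 members were given a role after the table had been opened. Named were a core list of ER genes, member DEGs, the 2 largest changes each way per role group (called, without overlap, with 20 counts or more on average in whichever group was higher), the 5 most abundant members per length, and related genes called with an absolute log2FC above 0.5. Further members are named to complete a group's count, and a few are not reported here by name. Alternatives were DESeq2 1.42.0, edgeR's quasi-likelihood test, quality weights, other scalings and filters, unrounded counts, a replicate block and leaving out each sample. Each sample held 18385714 to 21920899 counts, so that a gene with 20 counts lies near 1 CPM.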

Additional observations from a re-analysis of the deposited data

How the results depend on the processing

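The member counts were 17 higher and 50 lower. They ran from 13 (DESeq2) to 19 (quality weights) higher and from 42 (DESeq2) to 62 (quality weights) lower over the other tests, scalings and filters, with no called member turned. DESeq2 called 12.7% of all genes higher and 14.0% lower, and quality weights 20.1% and 21.4%. Leaving out 1 sample gave 11 to 21 higher, 32 to 68 lower, 0 or 1 lower DEG, a median log2FC of -0.087 to -0.074 and a summed difference that fell by 2253 to 2364 CPM. Those fits called 11.7% to 19.4% of all genes higher and 11.0% to 20.7% lower. The median log2FC was -0.065 with library size alone, -0.095 without a filter beyond 1 count and -0.069 with at least 10 counts in every sample. That filter, like the restriction to members with a mean of at least 1000 counts (chosen after the levels had been seen), left 0 lower DEGs, since Lman1l was no longer tested. Among members with whole counts in all samples, 9 were higher and 28 lower, of fewer members tested. With an absolute log2FC above log2 of 1.5 in place of 1, 1 member was higher and 2 lower. For that threshold and for members with whole counts, no share over all genes was counted. The summed difference was -2009 CPM with library size alone.

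Same-numbered samples of the groups did not deviate together (correlations -0.068 to 0.009), so the numbers were not taken as pairs. With the replicate block 13 members were higher and 47 lower, of which 13 and 45 were those called without it. That fit called 15.1% of all genes higher and 16.0% lower.

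Dnajb11, not called in any fit, changed sign with quality weights (0.005), library size alone (0.004) and the filter of at least 10 counts (0), and its log2FC ran from -0.022 to 0.007 as samples were left out. Hspa1a ran from -0.034 to 0.252 as samples were left out. Sec23b, Ube2j2, Calr4 and Hsp90b1 crossed the threshold under other tests as well as under left-out samples, and calls of transcripts with under 20 counts, such as Lman1l, are limited by depth. Ern1, Sel1l, Calr and Sec61b, not called in the main fit, passed with quality weights (FDR = 0.025, 0.0305, 0.00564 and 0.00411). Ern1 also passed with upper quartile scaling (FDR = 0.0455), and without a filter beyond 1 count both Ern1 (FDR = 0.0421) and Sel1l (FDR = 0.0494) did.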
